A study of Mus musculus with 8 samples.

Results

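Glutathione, a tripeptide of glutamate, cysteine and glycine, is the most abundant small thiol of most animal cells, and it carries the reducing power that peroxidases, transferases and glutaredoxins spend. It is made in successive ATP-dependent steps: glutamate-cysteine ligase, a dimer of a catalytic subunit (Gclc) and a modifier subunit (Gclm), joins glutamate to cysteine, and glutathione synthetase (Gss) adds glycine. Glutathione reductase (Gsr) turns the oxidised disulfide back into glutathione with NADPH, and glutaredoxin 1 (Glrx) uses glutathione to release proteins from mixed disulfides. NRF2 is a well described activator of the ligase genes, and ATF4, a dimer partner of C/EBPγ, drives genes that supply cysteine.

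These 5 genes were followed in fibroblasts cultured from mouse embryos (MEFs), which make connective tissue matrix, from animals without functional Cebpg (Cebpg-/-) and from wild type animals (WT). Cebpg encodes C/EBPγ, a leucine zipper transcription factor. Both genotypes had a C57BL/6 background, were derived at E13.5, kept in DMEM with 10% fetal bovine serum, and were collected 48 hours after plating at passage 3, with no further treatment named. Total RNA of 4 Cebpg-/- and 4 WT cultures was hybridised to 1 Affymetrix array each. The labels call the samples biological replicates without saying whether each came from its own embryo, so the p-values cover the spread among these 8 samples, which may be technical. Values are robust multi-array average (RMA) expression values on the log2 scale, on which a difference of 1 is a 2-fold change. The members were all probe sets whose platform annotation names Gclc, Gclm, Gss, Gsr or Glrx alone. This gave 10 probe sets, 2 per gene, of 45037, and 5 genes of 18193.

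As a check of the labels, the 1 probe set of 3 for Cebpg that passed read 5.53 ± 0.12 in Cebpg-/- and 6.32 ± 0.075 in WT (SD, n = 4 each; limma, adjusted p = 0.000593 over all probe sets). The other 2 had differences of -0.17 and 0.26, neither of them called (limma, adjusted p = 0.275 and 0.0942), and whether any of the 3 lies in the deleted part of the gene is not given in the sources used here. Fibroblast markers were bright: the mean of 12 ran from 9.01 to 9.32 on Cebpg-/- arrays and from 9.17 to 9.50 on WT arrays, with 4 members lower in Cebpg-/- (Col1a1, Col1a2, Col3a1 and Pdgfrb). Means of the endothelial, epithelial, erythroid and muscle lists lay between 2.21 and 3.18 on every array, where the median over all probe sets and arrays was 2.73. Of these lists Esam (endothelial) was called higher and Epcam (epithelial) lower in Cebpg-/-, by 0.42 and -0.34 (limma, adjusted p over genes = 0.0473 and 0.0200). Leukocyte markers were present and uneven between arrays, at means of 7.50, 4.77, 6.77 and 6.38 on Cebpg-/- replicates 1 to 4 and of 3.48, 5.26, 5.18 and 5.37 on WT replicates 1 to 4. More RNA per cell and more cells of one type cannot be told apart in such bulk samples.

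All 5 genes of glutathione synthesis and reduction were higher in Cebpg-/- cultures. The glutaredoxin and the modifier subunit of the ligase rose the most, by 2.77-fold and 2.20-fold at their brighter probe sets. The synthetase rose 1.52-fold, the catalytic subunit 1.39-fold and the reductase 1.35-fold. Of the 10 probe sets 10 passed the test in the upward direction (limma, Benjamini-Hochberg adjusted p under 0.05 over all probe sets), against 4.82% of all probe sets. On all 10 the 4 Cebpg-/- values lay above the 4 WT values, as they did on 8.71% of all probe sets. The gap between the lowest Cebpg-/- and the highest WT value ran from 0.12 for Gsr to 0.99 for Glrx.

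**Figure D1:**
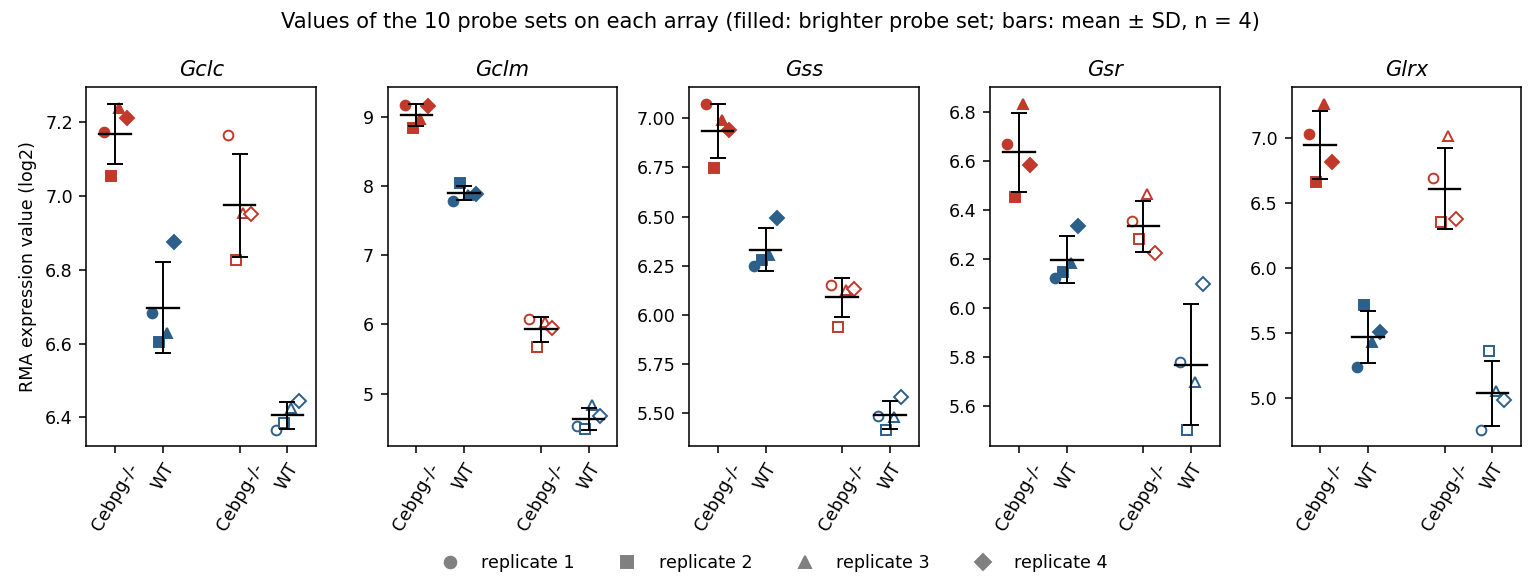
Log2 RMA values of the 10 probe sets, with Cebpg-/- (red) left of WT (blue) in each pair. Each point is 1 array, its shape the replicate number, filled for the brighter and open for the dimmer probe set of a gene; lines and bars are means ± SD (n = 4), and each panel has its own axis. In every pair the 4 red points lie above the 4 blue ones, and the lowest red point is replicate 2 in 9 of the 10 pairs.

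The catalytic subunit of glutamate-cysteine ligase, Gclc, holds the active site of the first step. Its brighter probe set (1424296_at) read 7.17, 7.05, 7.24 and 7.21 on Cebpg-/- replicates 1 to 4, against 6.68, 6.61, 6.63 and 6.87 on WT replicates 1 to 4. Every Cebpg-/- array stood above every WT array, with WT replicate 4 the nearest. The means were 7.17 ± 0.081 in Cebpg-/- and 6.70 ± 0.12 in WT (SD, n = 4 each). The difference was 0.47 with a standard error of 0.074, a 1.39-fold rise with a 95% interval of 1.24 to 1.56 (limma, adjusted p = 0.00598 over all probe sets). The dimmer probe set (1455959_s_at) read 7.17, 6.83, 6.95 and 6.95 in Cebpg-/-, against 6.37, 6.39, 6.43 and 6.44 in WT. Here the WT arrays were close together (SD 0.036) and the rise was 1.48-fold, with an interval of 1.32 to 1.66 (limma, adjusted p = 0.00248).

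Gclm, the modifier subunit, has no active site of its own and binds Gclc, which raises its affinity for glutamate and eases its inhibition by glutathione. At its brighter probe set (1418627_at) it read 9.17, 8.84, 8.96 and 9.15 in Cebpg-/-, against 7.79, 8.04, 7.87 and 7.88 in WT. The groups were 0.80 apart at their nearest values, Cebpg-/- replicate 2 and WT replicate 2. Means were 9.03 ± 0.16 in Cebpg-/- and 7.89 ± 0.11 in WT (SD, n = 4 each), a change of 1.13 with a standard error of 0.088. This is a 2.20-fold rise with a 95% interval of 1.92 to 2.52 (limma, adjusted p = 0.000253). The dimmer one (1439050_at) gave 6.07, 5.67, 6.03 and 5.95 in Cebpg-/-, against 4.53, 4.49, 4.83 and 4.67 in WT. Its rise was 2.46-fold (2.09 to 2.89; limma, adjusted p = 0.000314), so both Gclm probe sets passed 2-fold.

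Glutathione synthetase, which completes the tripeptide, was measured by a probe set (1448273_at) with values of 7.07, 6.75, 6.99 and 6.94 in Cebpg-/-, against 6.25, 6.28, 6.31 and 6.50 in WT. Cebpg-/- replicate 2 and WT replicate 4 were the nearest pair, 0.25 apart. Gss averaged 6.94 ± 0.14 in Cebpg-/- and 6.33 ± 0.11 in WT (SD, n = 4 each), a change of 0.60 with a standard error of 0.083. The fold was 1.52 with a 95% interval of 1.34 to 1.73 (limma, adjusted p = 0.00335). The other Gss probe set (1441931_x_at) has a name ending that Affymetrix gives to sets with probes matching other sequences. It read 6.15, 5.94, 6.13 and 6.13 in Cebpg-/-, against 5.49, 5.42, 5.48 and 5.59 in WT. That amounts to 1.51-fold (1.36 to 1.68; limma, adjusted p = 0.00128), and the changes of both Gss probe sets differed by 0.0074.

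For the reductase, Gsr, the brighter probe set (1421817_at) read 6.67, 6.45, 6.83 and 6.58 in Cebpg-/-, against 6.12, 6.15, 6.18 and 6.33 in WT. The groups did not overlap, but only 0.12 separated Cebpg-/- replicate 2 from WT replicate 4, the smallest gap among the 10 probe sets. Gsr averaged 6.63 ± 0.16 in Cebpg-/- and 6.20 ± 0.095 in WT (SD, n = 4 each). The change of 0.44 had a standard error of 0.087, or 1.35-fold with a 95% interval of 1.18 to 1.55 (limma, adjusted p = 0.0162). At the dimmer probe set (1421816_at) the values were 6.36, 6.28, 6.47 and 6.23 in Cebpg-/-, against 5.78, 5.50, 5.70 and 6.10 in WT. The WT arrays spread more widely here (SD 0.25) than those of the brighter Gsr probe set. The rise was 1.48-fold (1.24 to 1.76; limma, adjusted p = 0.0179).

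Glrx, which reduces glutathionylated proteins, had the widest separation. Its brighter probe set (1416592_at) read 7.03, 6.66, 7.26 and 6.82 in Cebpg-/-, against 5.24, 5.72, 5.43 and 5.51 in WT. Even the nearest arrays, replicate 2 of both genotypes, were 0.94 apart. The means were 6.94 ± 0.26 in Cebpg-/- and 5.47 ± 0.20 in WT (SD, n = 4 each), a change of 1.47 with a standard error of 0.14. This was a 2.77-fold rise with a 95% interval of 2.24 to 3.42 (limma, adjusted p = 0.000567). The dimmer probe set (1416593_at) gave 6.69, 6.35, 7.02 and 6.38 in Cebpg-/-, against 4.76, 5.36, 5.05 and 4.99 in WT, a 2.97-fold rise (2.31 to 3.81; limma, adjusted p = 0.000935).

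With 1 value per gene, its brighter probe set, 5 of 5 genes were called higher, with limma adjusted p over the 18193 genes between 0.000132 for Gclm and 0.0114 for Gsr. Over all genes 8.62% were called higher and 3.99% lower. The median change of the 5 was 0.60, where the median over all genes was -0.00092. Every one of the 5 was also called at both of its probe sets. Among the 9010 genes with at least 2 probe sets, 1.78% had every probe set called higher. That group includes genes with more than 2 probe sets, where more must pass, while each member has 2. By size of change, 0.379% of genes rose more than Glrx, 0.731% more than Gclm, 2.61% more than Gss, 4.14% more than Gclc and 4.68% more than Gsr. None of the 10 probe sets was dim: the lowest member value was 4.49, for Gclm in WT, above the 2.73 used as a filter.

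**Figure D2:**
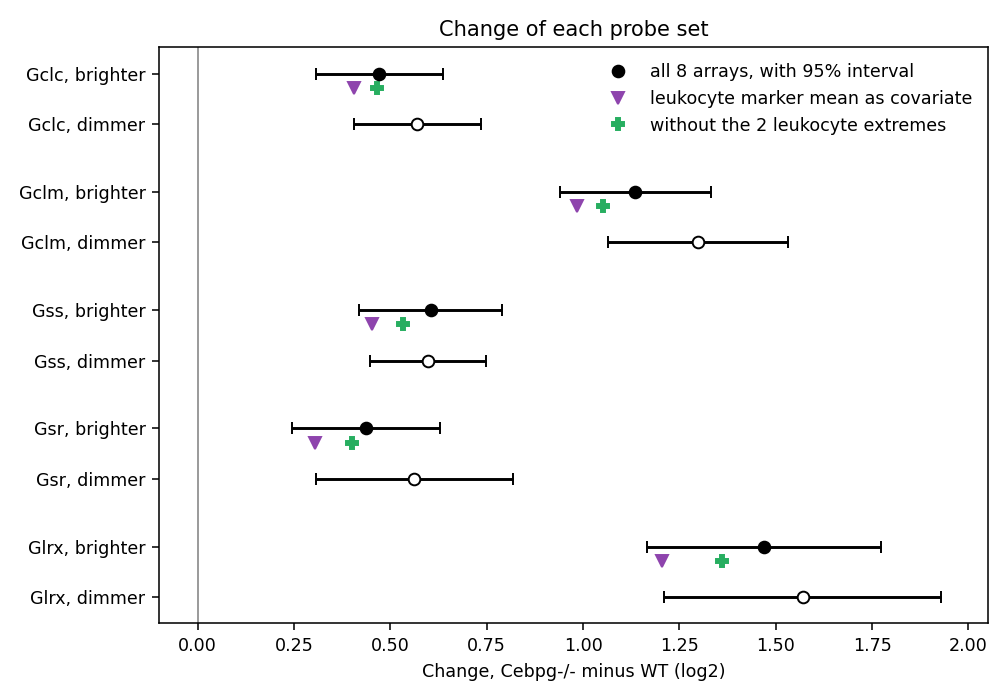
Change of each probe set, Cebpg-/- minus WT on the log2 scale, with its 95% interval from limma over all 8 arrays (circles, filled for the brighter probe set). Triangles show the brighter probe set with the leukocyte marker mean as a covariate, and crosses without the 2 arrays of lowest and highest marker mean. All circles lie between 0.44 and 1.57, and every triangle lies to the left of its circle.

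The measured changes of the 5 genes were not all of the same size. For each pair of genes the log2 difference on an array was compared between genotypes by an exact two-sided permutation test over the 70 splits of the arrays, whose smallest p is 0.0286, and p-values were adjusted over the 10 pairs. In 7 pairs the difference passed (exact p = 0.0286, adjusted p = 0.0408, which all 7 share). At that smallest p a pair can pass the adjustment only together with others, and pairs that share a gene are not independent. After quantile normalization 6 pairs passed (exact test, adjusted p = 0.0476). Gclm rose by 0.66 more than its partner Gclc: the Gclm value exceeded the Gclc value by 2.00, 1.79, 1.72 and 1.94 on Cebpg-/- arrays, against 1.10, 1.44, 1.24 and 1.01 on WT arrays. It also rose by 0.53 more than Gss and by 0.70 more than Gsr. Glrx rose by 1.00 more than Gclc, 0.86 more than Gss and 1.03 more than Gsr. Gss rose by 0.13 more than Gclc, a difference that no longer passed after quantile normalization (0.12, adjusted p = 0.0635 by the same exact test). With the mean of both probe sets of each gene it was 0.081 (exact test, adjusted p = 0.0408), since the dimmer Gclc probe set rose by 0.57. In 3 pairs the test was not passed. Glrx rose by 0.33 more than Gclm and Gss by 0.17 more than Gsr (exact p = 0.0571, adjusted p = 0.0635 for each), and Gclc by 0.03 more than Gsr (exact p = 0.543). The Glrx and Gclm difference was 0.20 without Cebpg-/- replicate 3, and the Gss and Gsr difference was 0.10 with the mean of both probe sets (exact test, adjusted p = 0.222). The Gclc and Gsr difference lay between 0.0034 and 0.078 when single arrays were left out. These figures compare changes, not levels, since different probe sets have no common scale. The test covers the spread between arrays, not a difference in response between probe sets. The 2 probe sets of a gene gave 0.47 and 0.57 for Gclc, 1.13 and 1.30 for Gclm, and 0.60 at both for Gss. They gave 0.44 and 0.56 for Gsr, and 1.47 and 1.57 for Glrx. A difference as small as that of Gss and Gclc thus cannot be told apart from one between probe sets.

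The arrays also differed within a genotype in a shared way. On 9 of the 10 probe sets the lowest Cebpg-/- value was that of replicate 2, the exception being the dimmer Gsr probe set, where replicate 4 was lowest. The highest Cebpg-/- value was that of replicate 1 on 5 probe sets and of replicate 3 on the other 5. Among WT arrays replicate 4 was highest on 6 probe sets and replicate 1 lowest on 6. The 10 probe sets measure only 5 genes. How often each array was lowest or highest over all probe sets was not counted, so this order is not shown to be particular to the members.

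The order of the Cebpg-/- arrays was partly that of the leukocyte markers, whose mean was also lowest on replicate 2 (4.77) and highest on replicate 1 (7.50). All 21 markers of the list were measured, and all 21 had a higher mean in Cebpg-/-, by a median of 1.61. Only Cd14 passed (1.37, limma, adjusted p = 0.0316 over genes). An unadjusted limma p under 0.05 was reached by 17, but the share of all genes at that level was not counted. Ptprc (CD45, on all leukocytes) averaged 4.70 ± 1.27 in Cebpg-/- and 3.34 ± 1.09 in WT, Csf1r (the receptor macrophages need) 8.13 ± 1.19 in Cebpg-/- and 6.83 ± 0.97 in WT, and Adgre1 (a macrophage surface protein) 6.26 ± 1.09 in Cebpg-/- and 5.01 ± 0.61 in WT (SD, n = 4 each). RMA values have no true zero. The lowest Ptprc value, 1.73 on WT replicate 1, lay below the median over all probe sets, as no Csf1r or Adgre1 value did.

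Cebpg-/- replicate 2 had fewer leukocyte transcripts by this mean (4.77) than WT replicates 2, 3 and 4 (5.26, 5.18 and 5.37). That it read above these WT arrays on all 10 probe sets already follows from the groups not overlapping. Whether leukocyte content had a part in the changes was not tested. With the marker mean as a covariate, all 5 changes stayed positive: 1.21 for Glrx, 0.98 for Gclm, 0.45 for Gss, 0.41 for Gclc and 0.30 for Gsr. Those are 82.1%, 86.8%, 74.7%, 86.2% and 69.6% of the changes without it. Glrx, Gclm and Gss still passed (limma, adjusted p over genes = 0.00298, 0.00186 and 0.0318), and Gclc and Gsr did not (0.0731 and 0.168). Leaving out the arrays with the lowest and highest marker mean, WT replicate 1 and Cebpg-/- replicate 1, gave 0.46 for Gclc (adjusted p = 0.0496) and 0.40 for Gsr (0.105), and the other 3 passed (limma). This second alternative was chosen after seeing the data.

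**Figure D3:**
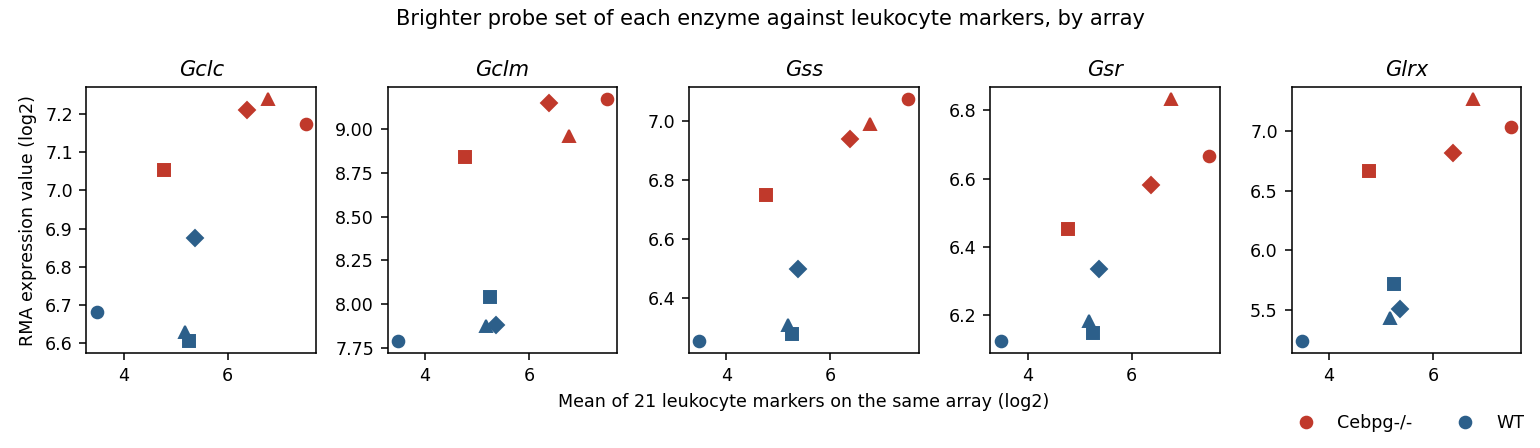
Value of the brighter probe set of each enzyme (vertical axes, log2 RMA value, each panel with its own range) against the mean of 21 leukocyte markers on the same array (horizontal axis, log2), for Cebpg-/- (red) and WT (blue). Shapes give the replicate number as in the plot of values by array. The red square is Cebpg-/- replicate 2, at a marker mean of 4.77. It lies above all 4 blue points in every panel, as every red point does.

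Promoter sequence is shown for the members whose start is in the RefSeq promoter table of GRCm38.p6, since genes that rise together invite a look at the elements upstream of them. The table holds windows of 300 bases (250 before and 50 after a start) for Gclm, Gss and Glrx. Glrx has 2 windows that start 1 base apart, of which the first is used. Gclc and Gsr are not among them. Below, each is given on its own strand up to the start of the annotated gene, with matches to the searched letters in capitals.
Gclm, chr3:122245307-122245486, plus strand: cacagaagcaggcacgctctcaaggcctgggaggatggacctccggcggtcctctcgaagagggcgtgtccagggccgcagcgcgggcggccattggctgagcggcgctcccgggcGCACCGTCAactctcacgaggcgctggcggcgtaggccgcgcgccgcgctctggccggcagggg
Gss, chr2:155592811-155593060, minus strand: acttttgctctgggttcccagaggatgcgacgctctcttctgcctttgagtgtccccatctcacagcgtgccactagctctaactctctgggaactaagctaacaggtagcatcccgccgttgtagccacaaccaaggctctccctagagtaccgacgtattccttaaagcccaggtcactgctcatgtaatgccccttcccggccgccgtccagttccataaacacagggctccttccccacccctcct
Glrx, chr13:75839635-75839884, plus strand: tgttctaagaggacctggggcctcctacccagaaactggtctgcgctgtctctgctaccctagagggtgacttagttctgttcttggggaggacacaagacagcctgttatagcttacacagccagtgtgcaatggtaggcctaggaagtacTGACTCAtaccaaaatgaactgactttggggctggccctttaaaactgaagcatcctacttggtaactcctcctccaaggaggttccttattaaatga

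Windows were searched on both strands for TGACNNNGC, the core of the antioxidant response element that NRF2 binds with small MAF proteins, and for TGATGNAA, the composite element of ATF4 with C/EBP factors. Gclm held 1 match to the first, GCACCGTCA, which is the motif on the opposite strand. Among all 32851 windows, 12.4% held such a match. The Gss and Glrx windows held none, and TGATGNAA, found in 3.97% of windows, was in none of the 3. The capitals in Glrx are TGACTCA, the AP-1 element, which resembles the antioxidant element; it was added after the windows had been read, and 5.20% of all windows hold it on either strand. The upstream stretches differed in composition: G and C made up 74.4% of the Gclm stretch with 24 CpG, 56.0% of the Gss stretch with 10 CpG and 48.8% of the Glrx stretch with 1 CpG, where the median over the 250 upstream bases of all windows was 52.4%. A match describes letters only, and an element outside these windows was not searched for. By the same RefSeq assembly the members lie on chromosomes 9 (Gclc), 3 (Gclm), 2 (Gss), 8 (Gsr) and 13 (Glrx), none of them chromosome 7, which carries Cebpg.

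The genes whose profiles were most like those of the members were found by the root-mean-square difference between log2 profiles over the 8 arrays, each centred on its own mean, among the 9096 genes brighter than the median gene. For Gclm they were Mdm2 (0.065), Pfkfb3 (0.091) and Repin1 (0.095), and for Glrx Parvb (0.13), Cobll1 (0.15) and Sqor (0.20). Kdsr, Abcc1 and Gla were nearest to Gss, at 0.053, 0.053 and 0.055. Abcc1 exports glutathione conjugates from cells. Nearest to Gclc were Nufip2 (0.053), Nsmaf (0.061) and Ubl3 (0.067), and to Gsr Mef2a (0.062), Wdr12 (0.067) and Epb41l1 (0.067). The distance takes in the difference between genotypes, so a near gene is in large part one with a change of like size. All profiles share the same 8 arrays, so these are descriptions.

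The rest of the pathway was read from 8 lists of 113 genes, of which 101 were measured. The lists were chosen with earlier results of these data known, so their counts and medians are descriptions only. Of the 101 genes 28 rose, 13 fell and the others were not called, at a median change of 0.14. Over all genes 8.62% were called higher and 3.99% lower. Of 6 measured genes of cysteine supply none rose and 3 fell, with a median of -0.20. Cth, which makes cysteine from cystathionine, averaged 4.69 ± 0.19 in Cebpg-/- and 7.94 ± 0.069 in WT, 9.47-fold lower in Cebpg-/- (limma, adjusted p = 7.4e-08 over genes). Slc7a11 and Slc3a2, the subunits of the cystine importer, fell by 0.67 and 0.29 on the log2 scale (limma, adjusted p = 0.00682 and 0.0171). Slc7a11 read between 3.07 and 3.39 in Cebpg-/- and between 3.59 and 4.14 in WT, not far above the filter level of 2.73. The Slc3a2 call was lost without Cebpg-/- replicate 3 (limma, adjusted p = 0.055). With the leukocyte marker mean as a covariate the Slc7a11 and Slc3a2 calls were both lost (limma, adjusted p = 0.088 and 0.102). The same held without the leukocyte extremes (limma, adjusted p = 0.069 and 0.080).

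Among 13 genes of glutathione breakdown and export 5 rose, 1 fell and 7 did not pass, with a median of -0.02. Oplah and Anpep lay below the filter level of 2.73 on all 8 arrays, and the median includes them. The list's count of calls, 6 here, lay between 4 and 7 when single arrays were left out. It was 4 without replicate 1 or 3 of either genotype. Chac1, which cleaves glutathione in the cytosol, averaged 6.10 ± 0.21 in Cebpg-/- and 7.80 ± 0.11 in WT, while its relative Chac2 rose by 0.41 (limma, adjusted p over genes = 3.34e-05 and 0.00594). The exporters Abcc4 and Abcc1 rose by 0.79 and 0.56 (limma, adjusted p = 0.000917 and 0.00276). Averaged over its probe sets, Abcc1 was not called (limma, adjusted p = 0.069). Of 12 other glutaredoxins and genes of the thioredoxin system 2 rose, 1 fell and 9 did not pass, with a median of 0.14. Txnrd1 (thioredoxin reductase 1) rose by 0.71 and Srxn1 (sulfiredoxin) by 0.95 (limma, adjusted p = 0.00172 and 0.000769). Txnrd1 did not pass with the mean of its probe sets (limma, adjusted p = 0.070). Prdx4 fell by 0.23 on the log2 scale (limma, adjusted p = 0.0462), a call lost without any one of 7 of the 8 arrays. The other glutaredoxins Glrx2, Glrx3 and Glrx5 differed by 0.15, -0.08 and 0.21, none of them called (limma, adjusted p = 0.105, 0.405 and 0.0863). Glrx3 was dim, below the filter level of 2.73 on every array except WT replicate 1. Its probe set therefore cannot show whether Glrx3 changed.

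Of 10 glutathione peroxidases and glyoxalase genes none was called by limma, 6 had an unadjusted p under 0.05, and the median was -0.0069. Gpx2 and Gpx5 lay below the filter level of 2.73 on every array. Both the 6 and the median include these dim genes, so neither the count nor the sign of the median can be relied on. Gpx7 and Hagh had the lowest p, at changes of -0.35 and 0.21 (limma, adjusted p = 0.0525 and 0.0587). Of 21 glutathione transferases, which conjugate glutathione to reactive compounds, 6 rose, none fell and 15 did not pass, with a median of 0.24. Gsta4 averaged 6.90 ± 0.14 in Cebpg-/- and 5.45 ± 0.32 in WT, and Mgst3 and Gstk1 rose by 0.74 and 0.52 (limma, adjusted p of the 3 between 0.000443 and 0.0128). Gsto2 was also called (limma, adjusted p = 0.0172), but it was dim: it read between 2.76 and 3.61 in Cebpg-/- and between 1.99 and 2.59 in WT, all 4 WT values lying below 2.73, so no fold is given. The transferase count fell to 3 without WT replicate 1, where Gsto2 lay at an adjusted p of 0.052 (limma).

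NADPH is what glutathione reductase draws on. The 12 measured genes of its supply held 4 called higher and 4 called lower, with a median of 0.016. Among the lower ones, Me3, lay below 2.73 on all 8 arrays. Taldo1 and Pgd of the pentose phosphate pathway rose by 0.61 and 0.57, Me2 (a malic enzyme) rose by 0.34, and Mthfd2 (a mitochondrial folate enzyme) averaged 8.29 ± 0.26 in Cebpg-/- and 9.42 ± 0.11 in WT (limma, adjusted p between 0.000639 and 0.00649 over genes). The list's count of calls was 5, against 8, when replicate 1 or 4 of Cebpg-/- or replicate 1 or 2 of WT was left out.

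Among 14 genes of control by NRF2 and ATF4 2 rose and 4 fell, with a median of -0.02. Cebpg itself is 1 of the 14, at its brightest probe set, which was not called (-0.17, limma, adjusted p = 0.232 over genes). Nfe2l2, which encodes NRF2, averaged 8.16 ± 0.021 in Cebpg-/- and 7.92 ± 0.067 in WT, a rise of 0.24 (limma, adjusted p = 0.0210). That call was lost without WT replicate 1 or 3 or Cebpg-/- replicate 3 or 4 (limma, adjusted p = 0.063, 0.056, 0.059 and 0.053), and with the mean of its probe sets (0.156). Bach1, a repressor at NRF2 sites, averaged 7.51 ± 0.082 in Cebpg-/- and 7.88 ± 0.061 in WT (limma, adjusted p = 0.00565), and with the mean of its probe sets it did not pass (0.271). Its relative Bach2 averaged 3.63 ± 0.35 in Cebpg-/- and 4.54 ± 0.15 in WT. Atf5, an ATF4 relative, averaged 7.88 ± 0.27 in Cebpg-/- and 9.12 ± 0.069 in WT, and Maff, a small MAF protein, rose by 0.44 (limma, adjusted p of Bach2, Atf5 and Maff between 0.000343 and 0.00609). Keap1, the inhibitor of NRF2, differed by 0.15 and Atf4 by -0.11, and neither passed (limma, adjusted p = 0.0911 and 0.246).

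Of the NRF2 targets outside glutathione metabolism 13 were measured: 9 were called higher, none lower and 4 were not called, at a median of 0.81. Over all genes 8.62% were called higher. This list too was chosen with earlier results of these data known, so its count and median are not independent of them. Among the 9, Aox1, lay below 2.73 on all 8 arrays. Hmox1 (haem oxygenase 1) averaged 10.08 ± 0.43 in Cebpg-/- and 7.35 ± 0.079 in WT, and Slc48a1 (a haem transporter), Blvrb (biliverdin reductase B) and Ptgr1 (prostaglandin reductase 1) rose by 1.05, 1.44 and 0.84 (limma, adjusted p of the 4 between 4.68e-05 and 0.000578 over genes).

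The leukocyte marker mean, which overlapped between the genotypes, was also set beside these lists. With it as a covariate the NRF2 targets kept 8 calls at a median of 0.64. The other counts then were 1 fall in cysteine supply, 2 rises and 1 fall in breakdown and export, 2 rises in the thioredoxin system, 1 rise among transferases, 2 rises and 1 fall in NADPH supply and 1 fall in control by NRF2 and ATF4. After subtraction of array medians, which moved the median of all genes to 0.034, the medians of breakdown and export, of the peroxidases and of control by NRF2 and ATF4 were slightly positive (0.013, 0.028 and 0.013). With the leukocyte covariate the same 3 medians were positive too (0.021, 0.051 and 0.0054). The other list medians kept their direction under both.

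**Figure D4:**
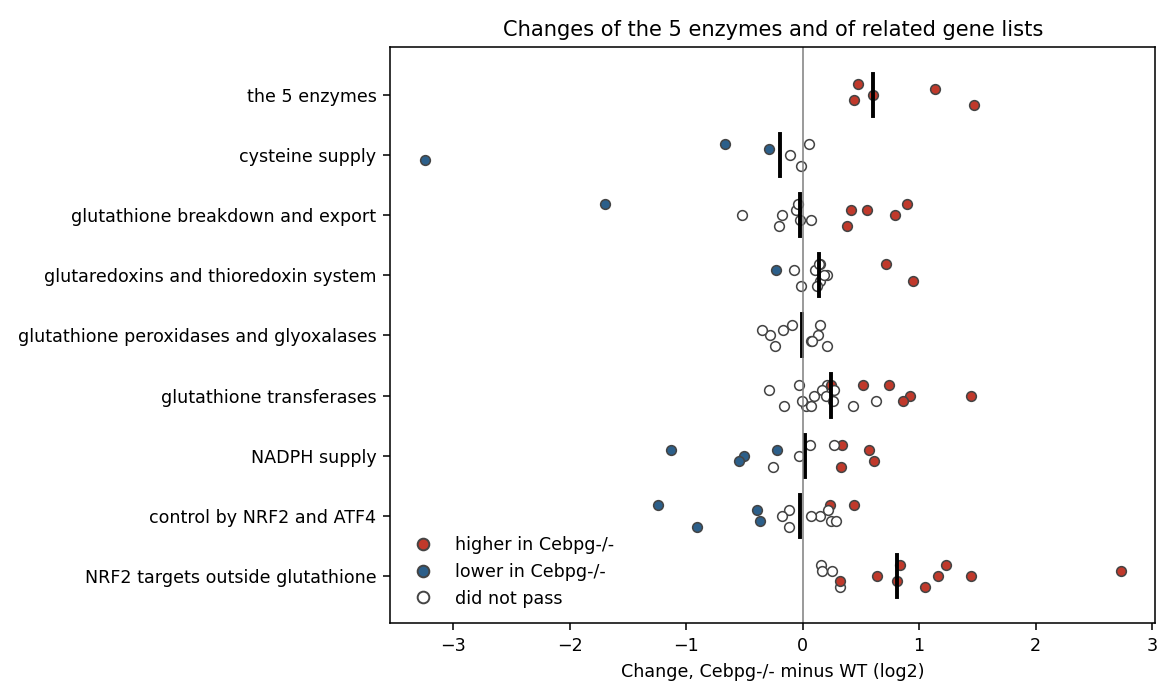
Change of each measured gene, Cebpg-/- minus WT on the log2 scale (horizontal axis), for the 5 enzymes and the 8 related lists. Each point is 1 gene at its brightest probe set, red where it rose, blue where it fell and open where it did not pass; black bars are medians. The 5 enzymes have a median of 0.60 and the NRF2 targets of 0.81, and 3 of the 6 genes of cysteine supply fell. Enzymes and lists were chosen with earlier results of these data known.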

How the data were processed

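Expression was measured on 8 one-colour Affymetrix arrays. The authors deposited a log2 value for each probe set, and RMA is the method that the submitters' processing notes name. The version and settings of RMA, the genome build and any scan batches are not stated there or in the labels. RMA normally removes overall brightness differences and understates changes of dim probe sets. The number of arrays limits the precision.

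Of 45101 probe sets 64 controls were left out. The platform annotation named 1 gene for 34945, several for 932 and none for 9160. Symbols of 34741 were updated by Entrez number through RefSeq (GRCm38.p6). The brightest probe set by mean over the 8 arrays stood for a gene.

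For all 45037 probe sets limma 3.58.1 (R 4.3.3) was used (genotype as the only term, eBayes without trend), and p-values were adjusted by Benjamini-Hochberg over all probe sets or over 18193 genes, with a threshold of 0.05. Pairs of members were compared by exact permutation. The fit was tested on simulated data. The members and lists were chosen with earlier results of these data known. Named list genes are the called ones with the lowest p, at most 4 a list (2 where none passed), and also Cebpg, Atf4, Nfe2l2, Keap1, Slc7a11, Cth, Chac1, Ptprc, Csf1r and Adgre1, called or not. Glrx2, Glrx3, Glrx5 and the genes named for lying below the filter level or as called markers were added after their values were seen. Listed genes that no probe set names alone were not analysed here.

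Alternatives were other scalings, a filter on dim probe sets, averaging over probe sets, adjustment over all probe sets, other variance models, array weights, a replicate block, leukocyte and Y-linked covariates, other thresholds, leaving out each array in turn, and, added after seeing the data, leaving out both leukocyte extremes.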

Additional observations from a re-analysis of the deposited data

Results flagged for a closer look

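Of 22 groups of 4 values examined (10 probe sets and the leukocyte marker mean, each in both genotypes), 2 held an array far from the other 3, where chance marks about 1 group in 20. The dimmer Gss probe set (1441931_x_at) read 5.94 on Cebpg-/- replicate 2, while the other Cebpg-/- arrays lay between 6.13 and 6.15. This lowest Cebpg-/- value was still 0.35 above the highest WT value of that probe set. The leukocyte marker mean was 3.48 on WT replicate 1, while the other WT arrays lay between 5.18 and 5.37. Without WT replicate 1 all 5 members passed, with the highest limma adjusted p for Gsr, at 0.0400.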

How the results depend on the processing

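For the 5 genes 95 values were recomputed under 19 alternatives each. All 95 changes were positive, and 92 stayed on the same side of the threshold. With the leukocyte marker covariate Gclc (0.41) and Gsr (0.30) no longer passed, which left 3 genes called, and without both leukocyte extremes Gsr (0.40) did not pass. At least 2-fold were 2 genes. Leaving out each array in turn kept all 5 called. The replicate numbers did not pair the arrays (correlations of deviations of -0.27, 0.13, -0.0075 and 0.030 for numbers 1 to 4). With the replicate block all 5 genes passed (adjusted p for Gsr of 0.0281) and 34 pathway genes were called. The pathway lists together gave 41 calls, 19 with the leukocyte covariate, 23 without both extremes and 10 at 2-fold or more. Single lists moved by over 1.5 times elsewhere too: the transferases gave 10 calls after subtracting array medians and 11 at a threshold of 0.1 against 6, the thioredoxin system 5 with an intensity trend or at 0.1 against 3, and the peroxidases between 1 and 3 under 9 alternatives against 0. Of 110 recomputed pair differences 109 kept their side or moved by less than the spread between arrays. The causes were not tested.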
